A study of Homo sapiens with 2 samples.

Results

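Chromosome 19 carries the densest clusters of zinc finger genes in the human genome, and the data described here are the open chromatin peaks at the ends of those genes in 2 human cell lines. The members were the protein-coding genes of chromosome 19 whose symbol is ZNF followed by a number. They were chosen by name and position, and came to 240 of 19974 protein-coding genes (autosomes and X) in the RefSeq table of GRCh38.p14. ATAC-seq maps accessible DNA: it cuts open chromatin with the Tn5 transposase, which attaches sequencing adapters at the cut; here the enzyme was purified by the submitters, and 50000 cells entered each reaction per the labels' protocols. J76 is an acute T-lymphoblastic leukemia line. The human embryonic kidney line is called T293 in the sample labels and 293T in the protocol, and is written 293T here. Both lines were untreated as far as the labels say, and each gave 1 library, so every difference between them compares 1 library with another, has no replicate check and carries no p-value.

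The chromosome was split by the midpoint of each gene into 5 position groups: 0-15, 15-25, 25-42, 42-52 and 52-59 Mb, with 46, 37, 32, 35 and 90 members. A member had a peak in a line if a peak of that line overlapped the 1 kb either side of either gene end. This put it in 1 of 4 classes: open in both lines, in J76 alone (called J76 only), in 293T alone (293T only) or in neither. The classes and position groups were thus selected on the same peaks that are read out, so the counts by class and position are descriptions. There were 59631 peaks in J76 and 85597 in 293T, and neither list gives read counts. The depth of the libraries is therefore unknown, and a missing peak does not show that a site was closed. At the marker lists 9 of 9 T lineage genes had a peak in J76 only (3.94% of all genes), and 6 of 7 genes of the embryonic kidney list had one in 293T only (9.09% of all genes), with YAP1 in both. These lists were chosen with results of these data known, so their counts are no independent check of the labels.

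Most proteins of this family carry a KRAB domain followed by a row of C2H2 zinc fingers. The fingers read DNA, in many cases the sequence of transposable elements, and the KRAB domain recruits TRIM28, which brings in the histone methyltransferase SETDB1 and heterochromatin proteins. The genes multiplied by tandem duplication, so neighbours are often close relatives in sequence.

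The classes by gene ends were counted first. A peak in both lines was found at 141 members (58.8%, against 60.7% of all 19974 genes), in J76 only at 14 members (5.83%, against 3.94%) and in 293T only at 23 members (9.58%, against 9.09%). The remaining 62 members had a peak at their ends in neither line; 24 of them had a peak of at least 1 line inside the gene and 38 had none. J76 had a peak at 155 members (64.6% of all genes) and 293T at 164 (69.7% of all genes). The 1211 other coding genes of chromosome 19 held 715 open in both lines, with 4.05% J76 only and 6.03% 293T only. The 237 genes named ZNF plus a number on other chromosomes stood at 75.1% for both lines, 1.69% for J76 only and 9.28% for 293T only.

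Nearly all of these peaks lay on the gene end itself. The end fell inside the peak at 148 of the 155 members with a J76 peak and 157 of the 164 with a 293T peak. Strand is known for 210 members through the RefSeq promoter table. Among those with a peak, the highest was at the start site end in 141 of 143 for J76 and 145 of 146 for 293T. At 140 of the 141 members open in both lines the highest peaks of the lines overlapped, the exception being ZNF701. The peaks nearest the 1 kb limit on the inside were those of ZNF302, 887 bp away in J76 and 932 bp in 293T, and the 1 of ZNF544 at 863 bp. Just outside lay the 293T peak of ZNF114 at 1136 bp and the peaks of ZNF358 at 1301 and 1325 bp.

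The member peaks stood high in both lists. The fold is the authors' own enrichment over background at the summit, a linear ratio, and is used only within a list. Among members open in both lines the median fold was 9.83 in J76 (quartiles 7.96 and 11.1), against 4.83 over the whole J76 list. In 293T it was 11.2 (9.39 and 12.8), against 4.38 over the whole 293T list. At the other genes open in both lines the medians were 8.60 and 8.05. The line-only members had strong peaks as well: the median was 9.18 for J76 only, against 4.61 for the 772 other genes open in J76 only, and 9.96 for 293T only, against 5.63 for 1793 other genes. The −log10 q at line-only members ran from 12.2 to 75.8 in J76 and from 6.95 to 83.3 in 293T.

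**Figure D1:**
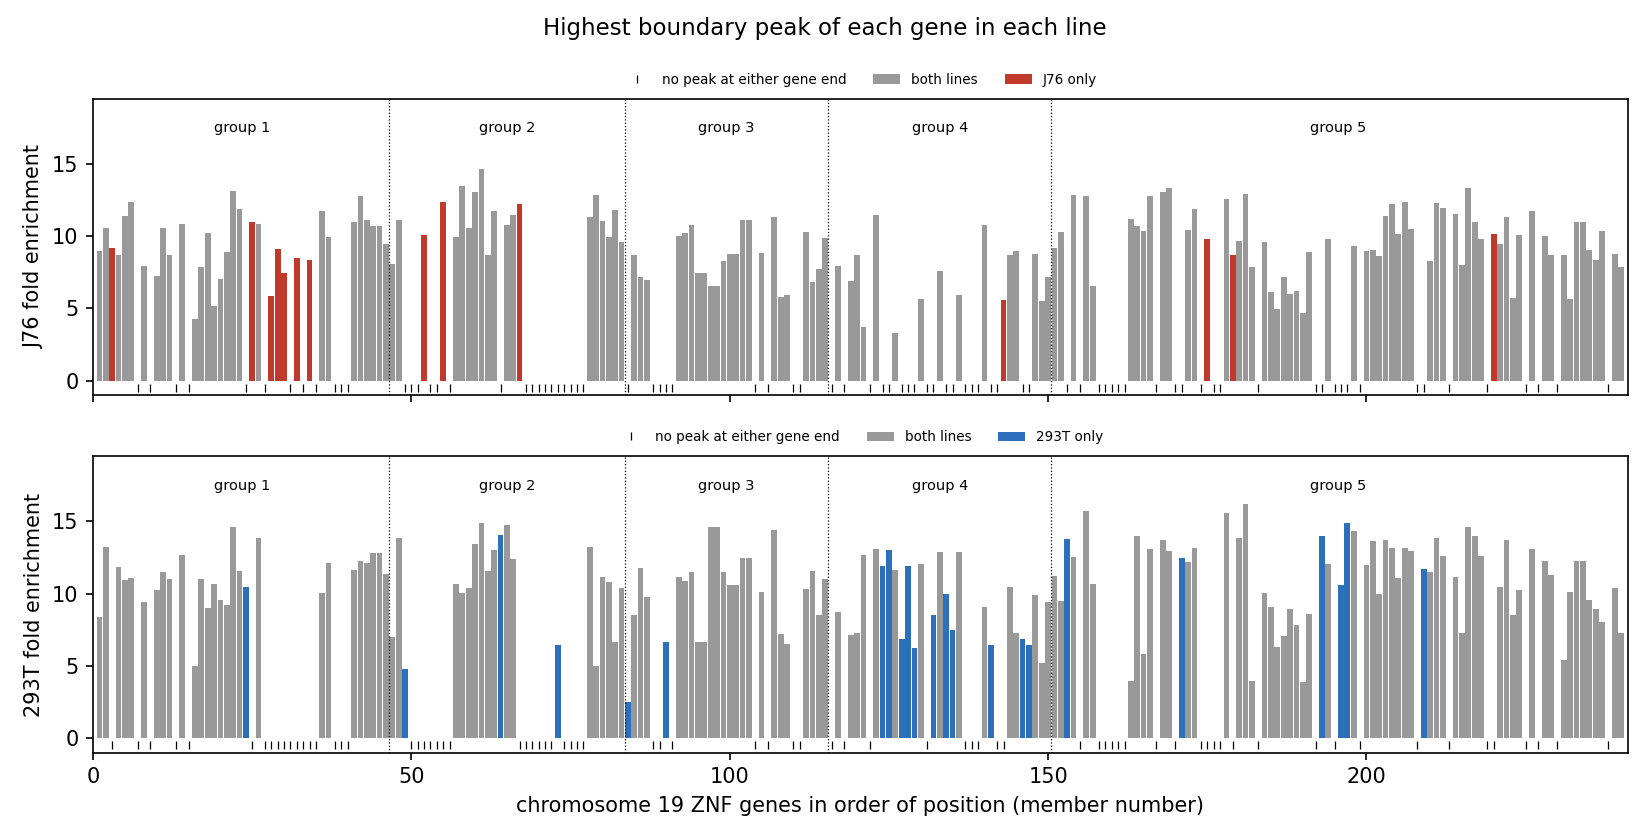
Fold enrichment of the highest peak at each of the 240 members, in order along chromosome 19 (1 bar per member and line from 0, J76 in the upper panel and 293T in the lower; ticks under the axis mark members without a peak in that line; grey bars are members open in both lines; position groups 1 to 5 are 0-15, 15-25, 25-42, 42-52 and 52-59 Mb). Line-only members reach folds as high as 12.4 in J76 and 14.9 in 293T, within the range of members open in both lines.

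The line-only members were unevenly spread over the chromosome. At 0-15 Mb 7 of 46 members (15.2%) were open in J76 only and 1 in 293T only, while the 430 other genes of that group stood at 4.65% and 5.12%. At 42-52 Mb the order was turned round: 11 of 35 members (31.4%) were open in 293T only and 1 in J76 only, against 6.78% and 4.07% of the 295 other genes there. In the other groups no line-only share of members passed 8.11%. At 15-25 Mb there were 3 of each among 37 (8.11% each), against 2.96% J76 only and 6.67% 293T only of the 135 other genes. At 25-42 Mb 2 of 32 were 293T only (6.25%) and 0 J76 only, against 6.45% and 4.61% of the 217 other genes. At 52-59 Mb 6 of 90 were 293T only (6.67%) and 3 J76 only (3.33%), against 5.97% and 2.24% of the 134 other genes. Members open in neither line made up 23.9%, 37.8%, 21.9%, 22.9% and 24.4% of the 5 groups in order.

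Peaks away from member ends were counted over the same position groups. Leaving out peaks at member ends, there were 749 J76 and 702 293T peaks at 0-15 Mb, a ratio of 293T to J76 of 0.937. At 42-52 Mb there were 486 and 490, a ratio of 1.01. The ratio was 0.884 at 15-25 Mb, 0.810 at 25-42 Mb and 0.845 at 52-59 Mb, and 1.45 over all chromosomes. The number of copies of each region in the lines was not measured, and its part in the counts was not tested.

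**Figure D2:**
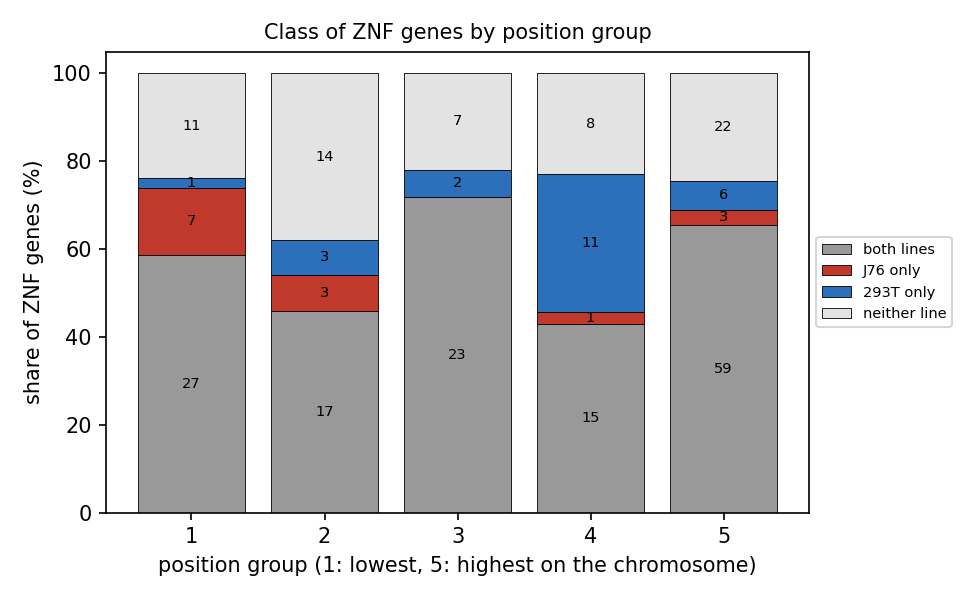
Share of members in each class (stacked bars, percent, counts printed inside) for the 5 position groups, numbered from the lowest position (0-15 Mb) to the highest (52-59 Mb). J76-only members are most frequent in group 1 (15.2%) and 293T-only members in group 4 (31.4%).

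Line-only genes of 1 kind were in part neighbours. Of the 23 members open in 293T only (9.58% of all members), 11 (47.8%) had another such member directly before or after them. A neighbour open in both lines was found for 19, 1 open in neither for 9 and a J76-only neighbour for 1. Of the 14 members open in J76 only (5.83% of all members), 3 (21.4%) had a J76-only neighbour. Another class stood beside them as well: both lines for 6, neither for 10 and 293T only for 1. A member can have 2 neighbours, so these shares are not like for like with the shares of all members. The opposite neighbours were ZNF441, open in 293T only (fold 10.4), and ZNF491, open in J76 only (11.02). The runs were short. J76 had 1 run of 3 members and 11 members alone in their run; 293T had 1 run of 3, 4 runs of 2 and 12 alone. Members open in both lines, the majority class, formed a longest run of 12.

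Joining line-only members less than 100 kb apart gave larger groups with other classes in between. In J76 there was 1 such group, of 6 members from ZNF491 to ZNF20, and the other 8 J76-only members stood alone. In 293T the largest had 8 members from ZNF221 to ZNF233. The others were ZNF577 with ZNF649 and ZNF471 with ZNF470, so that 12 of the 23 members lay in groups and 11 alone. The group of 6 held all but 1 of the 7 J76-only members at 0-15 Mb, and the group of 8 held 8 of the 11 293T-only members at 42-52 Mb.

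The J76 group lay in a stretch of 389.735 kb at chr19:11767000-12156734, between ZNF823 and ZNF136. The stretch was drawn around the group, with flanking genes chosen as open in both lines. Their folds were 11.9 in J76 and 11.5 in 293T at ZNF823 and 11.7 and 10.02 at ZNF136. The 12 members between them were the only protein-coding genes of the stretch. J76-only peaks marked ZNF491 (fold 11.02), ZNF69 (5.85), ZNF700 (9.13), ZNF763 (7.46), ZNF878 (8.46) and ZNF20 (8.35). ZNF441 at 1 edge was open in 293T only, ZNF440 was open in both lines with 10.8 and 13.9, and ZNF439, ZNF433, ZNF844 and ZNF625 had no peak at their ends. Counting every peak of the stretch, at gene ends or not, J76 had 18 and 293T had 3. Between ZNF491 and ZNF20, J76 had 8 peaks away from member ends and 293T had 1, so the larger number in J76 was not limited to the ends of members. Other ZNF transcripts also end there: the pseudogene ZNF788P (8.79) and the antisense transcript ZNF433-AS1 (9.07) had J76 peaks at an end.

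The run of 3 within it, ZNF69, ZNF700 and ZNF763, comes with a limit of the annotation. The table's span of ZNF69 reaches over ZNF700 and ZNF763, so the end of ZNF69 lies near that of ZNF763. Each of the 3 nevertheless has its own J76 peak at its lower end on the chromosome, none shared with another gene. ZNF69 and ZNF439, which had no peak in either line, stand next to each other and have promoters that are 85.0% identical by alignment, which makes them a pair of close relatives in different classes. They are printed 5′ to 3′ from the RefSeq promoter table (GRCh38.p14), from 250 bases before to 50 bases after the start, with each CpG in capitals; ZNF69 is chr19:11887532-11887831 and ZNF439 is chr19:11848476-11848775, both on the plus strand.
ZNF69: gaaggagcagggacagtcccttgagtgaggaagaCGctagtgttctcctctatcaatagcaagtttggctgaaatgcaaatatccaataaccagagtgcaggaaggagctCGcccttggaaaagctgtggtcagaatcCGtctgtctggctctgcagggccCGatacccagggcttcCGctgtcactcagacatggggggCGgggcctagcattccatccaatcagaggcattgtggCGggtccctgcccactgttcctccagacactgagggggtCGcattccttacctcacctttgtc
ZNF439: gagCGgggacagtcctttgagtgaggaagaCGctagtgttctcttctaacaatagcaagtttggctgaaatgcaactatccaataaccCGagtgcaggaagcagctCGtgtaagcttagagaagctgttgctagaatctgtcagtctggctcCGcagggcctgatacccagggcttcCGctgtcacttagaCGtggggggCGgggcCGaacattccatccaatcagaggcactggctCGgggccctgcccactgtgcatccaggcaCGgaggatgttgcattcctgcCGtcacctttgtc
The ZNF69 window holds 8 CpG and the ZNF439 window 12.

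The 293T group lay in a stretch of 497.351 kb at chr19:43951228-44448578, between ZNF45 (11.5 in J76 and 13.1 in 293T) and ZNF180 (10.8 and 9.06). Its flanking genes were again chosen as open in both lines, and ZNF235, nearer to the group and also open in both, was passed over. The 16 members of the stretch, again the only protein-coding genes there, held 8 open in 293T only, 4 in both, 4 in neither and 0 in J76 only. The 293T-only members were ZNF221 (fold 11.9), ZNF155 (13.0), ZNF222 (6.89), ZNF223 (11.9), ZNF284 (6.26), ZNF234 (8.55), ZNF227 (9.96) and ZNF233 (7.51). ZNF222, ZNF223 and ZNF284 formed the run of 3. The stretch held 15 peaks of 293T and 9 of J76. Between ZNF221 and ZNF233, 293T had 2 peaks away from member ends and J76 had 4.

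The 4 members of this stretch open in both lines had folds between 11.7 and 12.9 in 293T (median 12.5), near the top of its list, and between 3.29 and 7.58 in J76 (median 5.78). ZNF230 had 3.29 in J76 and 11.7 in 293T. ZNF224 had 5.64 and 12.1, ZNF226 had 7.58 and 12.9, and ZNF235 had 5.93 and 12.9. Within the J76 list, with a median of 4.83, ZNF230 lay below the median and ZNF224, ZNF226 and ZNF235 above it. ZNF283 lies outside the stretch, before ZNF45 and separated from it by ZNF404, which had no peak at its ends in either line; ZNF283 had 3.73 and 12.7. Over all members open in both lines at 42-52 Mb the median fold was 7.58 in J76, with 8.67 to 11.1 in the other position groups, and 9.94 in 293T, with 10.9 to 11.5 in the others. It was thus the lowest of the 5 position groups in each list. Of the 4 members without a peak at their ends, ZNF225 and ZNF112 had a 293T peak (folds 13.6 and 14.2) and no J76 peak at a start site inside the annotated gene. ZNF285 and ZNF229 had none. A J76 peak did lie inside ZNF225, away from its start site window, and with 2.5 kb windows ZNF225 was open in both lines.

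The promoters of 3 of the 293T-only members are printed because they share a run of letters, at a different place in each window. ZNF222, ZNF284 and ZNF234 are 45.7% to 50.7% identical by alignment of whole windows. That measure lowers the identity of sequences that are alike but shifted, so it does not show that they are unrelated. The longest run of letters common to all 3, in capitals, is 18 bases long. ZNF284 and ZNF234 also share other runs outside the capitals. ZNF222 is chr19:44025129-44025428, ZNF284 is chr19:44071909-44072208 and ZNF234 is chr19:44141304-44141603, all on the plus strand of GRCh38.p14, in the RefSeq promoter table.
ZNF222: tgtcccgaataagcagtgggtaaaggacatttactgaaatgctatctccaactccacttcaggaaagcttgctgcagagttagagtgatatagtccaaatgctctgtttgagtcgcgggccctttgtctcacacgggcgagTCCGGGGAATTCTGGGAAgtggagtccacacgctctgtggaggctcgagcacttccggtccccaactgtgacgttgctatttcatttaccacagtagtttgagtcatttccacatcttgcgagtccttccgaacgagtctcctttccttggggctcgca
ZNF284: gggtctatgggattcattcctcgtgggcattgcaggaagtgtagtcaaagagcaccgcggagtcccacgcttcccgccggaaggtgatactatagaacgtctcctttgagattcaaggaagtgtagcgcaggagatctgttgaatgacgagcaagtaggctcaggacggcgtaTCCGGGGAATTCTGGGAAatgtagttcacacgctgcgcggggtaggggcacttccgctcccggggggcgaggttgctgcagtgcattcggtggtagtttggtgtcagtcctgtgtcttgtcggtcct
ZNF234: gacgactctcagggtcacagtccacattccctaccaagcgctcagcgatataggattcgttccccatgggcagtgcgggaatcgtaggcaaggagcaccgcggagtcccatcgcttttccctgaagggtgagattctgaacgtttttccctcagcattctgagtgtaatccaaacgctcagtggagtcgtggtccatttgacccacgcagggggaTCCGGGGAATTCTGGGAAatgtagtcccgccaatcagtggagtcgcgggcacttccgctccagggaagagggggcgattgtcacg
Among the 12 members of the stretch with a promoter entry these 3 held the run, and in all it was found, on either strand, in 3 of 15813 coding genes with an entry (0.0190%). The genes were picked and the run was searched for after their classes were known, so the match is a description.

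**Figure D3:**
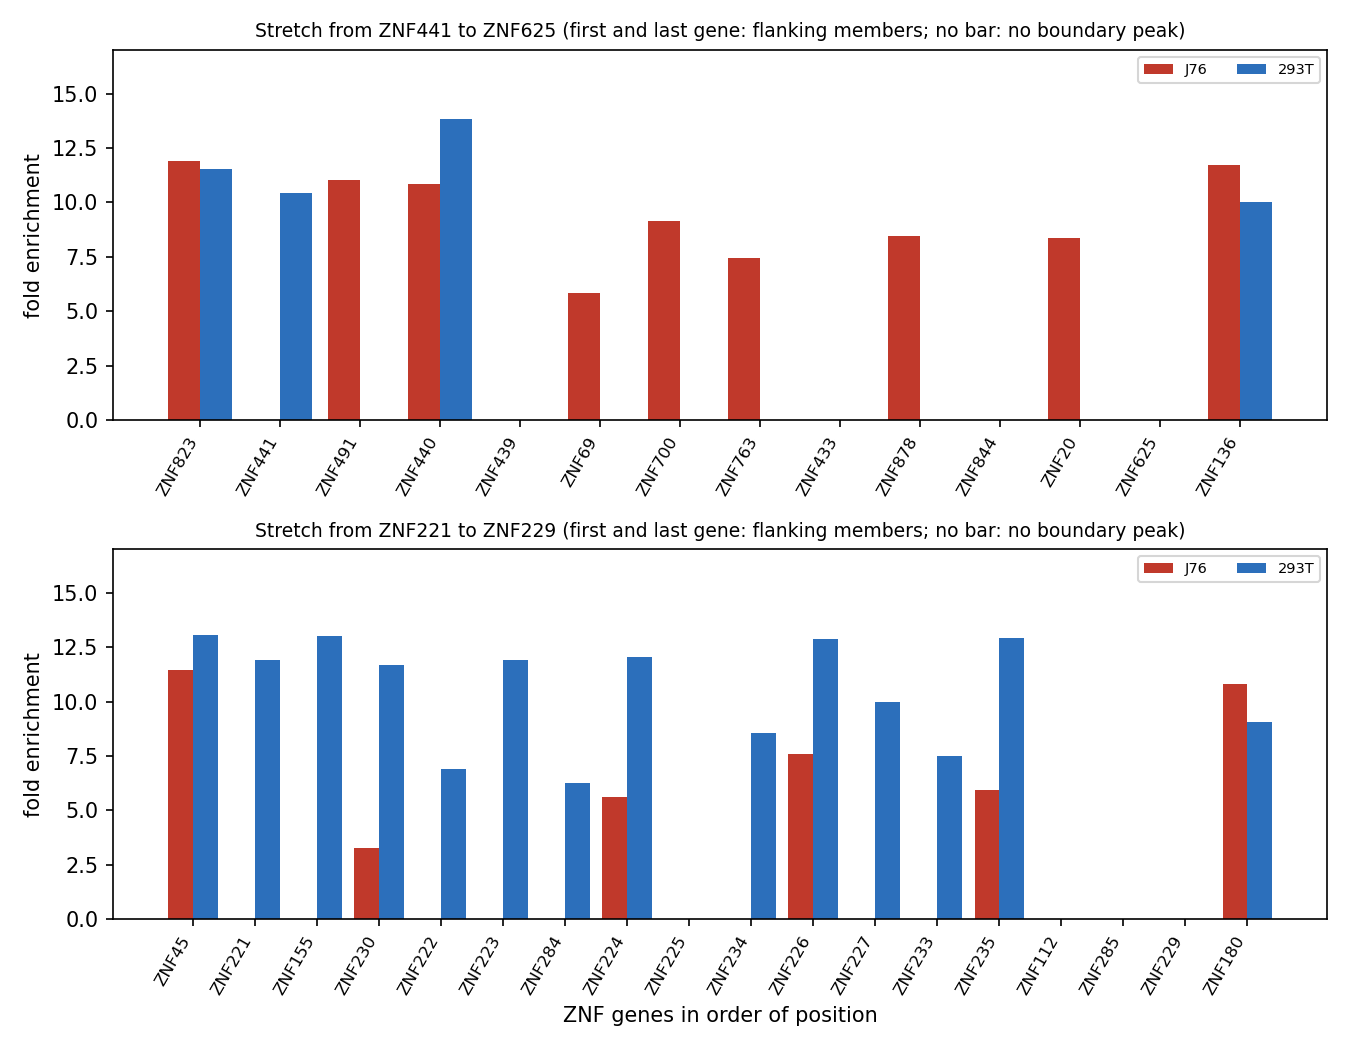
Fold enrichment of the highest peak at gene ends (bars from 0, J76 and 293T side by side, 1 library each) for every member from ZNF441 to ZNF625 and from ZNF221 to ZNF229, in chromosome order, with the flanking genes ZNF823, ZNF136, ZNF45 and ZNF180 at the edges. The first stretch has 6 members with a J76 bar alone and the second has 8 members with a 293T bar alone.

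The members at 15-25 Mb had the largest share with no peak in either line (37.8%) and the most alike promoters. A peak in both lines was found at 17 of 37 members (45.9%), and 14 had no peak in either; of the 135 other genes there 66.7% were open in both lines and 23.7% in neither. The 14 include the long genes ZNF208, ZNF676 and ZNF730. Of the 14, 8 have a promoter entry, and 0 of these 8 had a peak of either line on it. Members open in both lines stood among the highest folds of the lists, with ZNF431 at 14.7 in J76 and 14.9 in 293T and ZNF714 at 13.0 and 13.4. ZNF91, a repressor known to bind a class of primate-specific retrotransposons, had 12.8 in J76 and 5.01 in 293T, the most unlike of this group by their place in each list. The line-only members were scattered: ZNF682 (10.1), ZNF737 (12.4) and ZNF43 (12.2) in J76, and ZNF506 (4.80), ZNF493 (14.1) and ZNF492 (6.47) in 293T. No 2 of the 3 J76-only members, and no 2 of the 3 293T-only members, were next to each other.

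For each member with a promoter entry the most similar promoter among the members was found by alignment. The median identity to it was 82.0% at 15-25 Mb, 63.0% at 0-15 Mb, 53.5% at 42-52 Mb and 56.7% over all 210, with a highest value of 91.0%. By class it was 56.3% for members open in both lines, 69.0% for J76 only, 54.3% for 293T only and 57.0% for neither. The lowest best match of any member was 48.3%. What unrelated windows reach was not measured, so medians close to that value do not show likeness. How the authors treated reads with several places in the genome is not stated in the labels, and its part in the classes was not tested. Alike promoters were found in all 4 classes. ZNF431 (both lines), ZNF493 (293T only), ZNF737 (J76 only) and ZNF208 (neither) are printed to show this. They are chr19:21141790-21142089 and chr19:21396883-21397182 on the plus strand and chr19:20565732-20566031 and chr19:22010894-22011193 on the minus strand, again from the RefSeq table of GRCh38.p14. Capitals mark a 16-letter word that a search for shared words found after the values were known.
ZNF431: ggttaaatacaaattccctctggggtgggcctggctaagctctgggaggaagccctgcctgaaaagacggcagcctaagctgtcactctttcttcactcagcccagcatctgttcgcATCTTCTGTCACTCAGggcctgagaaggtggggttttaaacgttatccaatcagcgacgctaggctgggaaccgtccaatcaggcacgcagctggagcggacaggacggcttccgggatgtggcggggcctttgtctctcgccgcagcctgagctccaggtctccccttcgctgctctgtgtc
ZNF493: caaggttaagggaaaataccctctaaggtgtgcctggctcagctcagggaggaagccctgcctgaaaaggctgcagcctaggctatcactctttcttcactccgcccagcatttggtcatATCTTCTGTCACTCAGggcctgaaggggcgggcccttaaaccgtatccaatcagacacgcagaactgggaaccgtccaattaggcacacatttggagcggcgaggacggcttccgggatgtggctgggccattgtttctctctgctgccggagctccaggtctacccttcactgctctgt
ZNF737: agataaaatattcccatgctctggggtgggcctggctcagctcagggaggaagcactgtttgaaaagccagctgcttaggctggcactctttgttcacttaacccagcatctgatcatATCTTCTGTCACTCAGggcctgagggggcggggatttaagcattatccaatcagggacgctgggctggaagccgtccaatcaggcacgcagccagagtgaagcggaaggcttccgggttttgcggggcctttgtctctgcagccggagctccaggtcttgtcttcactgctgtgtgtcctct
ZNF208: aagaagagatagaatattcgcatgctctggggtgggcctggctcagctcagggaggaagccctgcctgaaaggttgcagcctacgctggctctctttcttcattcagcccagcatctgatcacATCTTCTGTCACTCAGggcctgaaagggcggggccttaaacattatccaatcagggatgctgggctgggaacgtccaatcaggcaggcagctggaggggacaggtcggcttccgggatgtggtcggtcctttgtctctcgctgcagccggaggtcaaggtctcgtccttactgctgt
ZNF431 was 82.0% identical to ZNF493, 79.7% to ZNF737 and 82.3% to ZNF208. ZNF493 and ZNF737, open in opposite lines, were 74.3% identical. The word, on either strand, was held by 14 of the 29 members of this position group with an entry (48.3%) and by no other of the 15813 coding genes with one (14 in all, 0.0885%). Of the 14, 8 were open in both lines, 3 in neither, 2 only in 293T and 1 only in J76.

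At 25-42 Mb the members were open in both lines more often than in any other position group, 23 of 32 (71.9%), with 64.1% of the 217 other genes there. ZNF527 had 11.4 in J76 and 14.4 in 293T. ZNF829 and ZNF568 share 1 peak between their ends, with 11.1 and 12.5. ZNF461, which shares its peak with ZNF567, had 6.54 and 14.6. The 2 line-only members were ZNF536 (2.498), a large gene known from the brain, and ZNF792 (6.67), both in 293T. The ZNF536 value was the lowest fold of any line-only member.

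At 52-59 Mb, the largest group, 59 of 90 members (65.6%) were open in both lines while the 134 other genes there stood at 38.1%. Among the highest in both lists were ZNF134, with 13.4 in J76 and 14.6 in 293T, and ZNF468, with 13.4 and 13.0. ZNF808 had 11.2 in J76 and 3.96 in 293T. The J76-only members ZNF347 (9.78), ZNF525 (8.70) and ZNF671 (10.2) had no J76-only neighbour. The 293T-only members ZNF841 (13.8), ZNF888 (12.5), ZNF582 (14.0) and ZNF772 (11.7) also stood alone. ZNF471 (10.6) and ZNF470 (14.9) were neighbours, and the ZNF470 peak also lies at the end of the divergent transcript ZNF470-DT.

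The remaining line-only members lay outside the stretches described above. ZNF556, at 0-15 Mb, was open in J76 only (9.22), with a 293T peak inside the gene. At 42-52 Mb ZNF114 was open in J76 only (5.598), next to the 293T peak that fell just past the 1 kb limit. ZNF296 (6.43), ZNF577 (6.89) and ZNF649 (6.47) were open in 293T only at 42-52 Mb. The ends of ZNF577 and ZNF649 lie within 2 kb of each other, and each had its own peak. In all, 2 of the 14 J76-only and 5 of the 23 293T-only members had the end of another protein-coding gene within 2 kb. Their peaks could belong to that gene. Noncoding transcripts were left out of these counts, and some end as near on the same peak. Examples are ZNF222-DT at ZNF222, ZNF582-DT at ZNF582 and ZNF114-AS1 at ZNF114. A peak of the other line lay inside the gene at 2 of the J76-only and 4 of the 293T-only members.

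Gene ends are a coarse readout, because a start site can lie inside the annotated gene. The promoter windows of 210 members (261 windows; 30 members have no entry) were therefore read as well, a choice made after the data were seen. On them 143 members had a peak in both lines (68.1%, against 60.8% of all 15813 genes with an entry). Another 15 had one in J76 only (7.14%, against 2.92%) and 18 in 293T only (8.57%, against 8.46%). In all, 158 members had a J76 promoter peak (75.2%, against 63.7%) and 161 a 293T one (76.7%, against 69.2%). The members thus stood further from all genes by promoter windows than by gene ends, except for 293T only. The sets differ as well: gene ends were read for 240 members and 19974 genes, promoter windows for 210 and 15813. The part of the change of set in this was not tested. All 12 J76-only members with an entry were J76 only here too. Of the 15 293T-only members with an entry, 13 were 293T only again, and ZNF536 and ZNF227 had a peak in both lines. The windows of line-only members mostly lie at the start site ends already read. Most of their peaks are thus the same ones, and the match is no independent check. Of the 52 with an entry and no peak at their ends, 33 had no promoter peak, 14 had one in both lines, 3 only in 293T and 2 only in J76.

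At 25-42 Mb, 28 of 30 members were open in both lines by promoter. ZNF420 had 9.89 in J76 and 14.3 in 293T, ZNF565 had 9.98 and 11.2, and ZNF540 had 10.3 and 10.3. At 0-15 Mb ZNF563 had 10.3 and 4.80, and ZNF558 (10.1) and ZNF442 (10.5) were open in J76 only. In 293T only, ZNF358 had 8.55. At 52-59 Mb ZNF331, which is imprinted in several human tissues, had 9.86 and 7.09. By this readout J76 only stood at 8 of 44 members at 0-15 Mb (18.2%), and 293T only at 7 of 28 at 42-52 Mb. The long genes ZNF560, ZNF541 and ZNF578 had no promoter peak, and ZNF600 has no entry.

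The promoter letters varied with position as well as with class. The ratio of observed to expected CpG, computed from the base counts of each window, had a median of 0.760 over the 210 members and 0.737 over all 15813 genes. It was 0.789 for members open in both lines, 0.498 for J76 only, 0.760 for 293T only and 0.691 for neither. At 0-15 Mb the medians were 0.745 for both lines, 0.443 for J76 only and 0.613 for neither. At 15-25 Mb the medians of all 4 classes were under the 0.737 of all genes, with 0.460 for both lines, 0.490 for J76 only, 0.521 for 293T only (2 members) and 0.420 for neither. Of the 12 J76-only members with an entry, 9 lie in these position groups. Over all genes the ratio was 0.440 for J76 only and 0.829 for both lines.

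**Figure D4:**
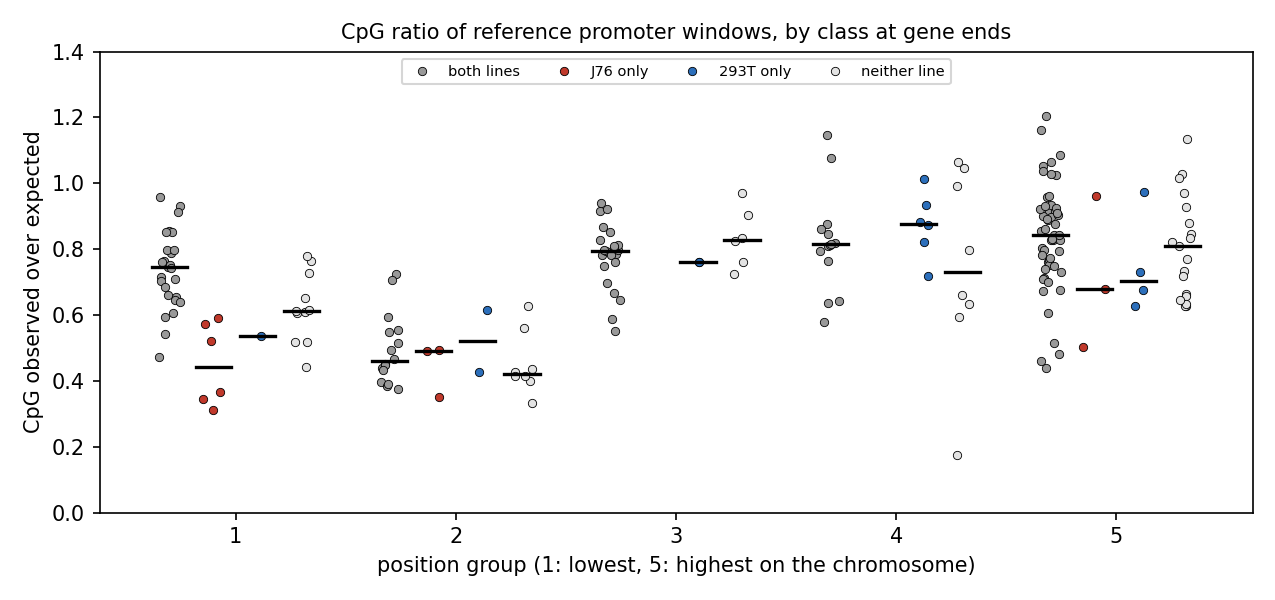
Observed over expected CpG in the promoter windows of 210 members (1 point per member, mean over its windows; bars are medians), by class and position group. Group 2 (15-25 Mb) is low in every class, while in group 1 (0-15 Mb) J76-only members have a lower median (0.443) than those open in both lines (0.745), with some overlap of points.

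Of 6 short motifs searched on both strands, the ETS word CCGGAAGT was held by 20.0% of members and 6.99% of all genes. Its share was 36.7% at 52-59 Mb and 0 of 29 members at 15-25 Mb. The CCAAT box, CCAAT, was in 56.2% of members (42.1% of all genes), in 72.7% at 0-15 Mb and in 29 of 29 at 15-25 Mb. The SP word GGGCGG was in 73.3% (64.3%). The words for NRF1 (GCGCATGC, 4.76% against 4.89%), CRE (TGACGTCA, 4.29% against 3.00%) and YY1 (AAGATGGC, 6.19% against 4.67%) were rare. None of the words contains another. Of the 12 J76-only members, 12 held the SP word and 11 the CCAAT box. The words were common in other classes of the same position groups. At 0-15 Mb all 6 J76-only members held both words. Members open in neither line there held SP in 10 of 11 and CCAAT in 9 of 11. Those open in both lines held SP in 21 of 26 and CCAAT in 16 of 26.

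Genes listed for the corepressor pathway of KRAB zinc finger proteins, read at gene ends alone, were open in both lines with 1 exception. Of 20 genes of the corepressor pathway, 19 had a peak in both lines (60.7% of all genes), 0 in 1 line only, and UHRF1 had none at its ends. TRIM28, the corepressor that KRAB domains bind, had 7.97 in J76 and 8.37 in 293T, and SETDB1, the methyltransferase, had 9.64 and 9.44. CHD3, a remodeler of the NuRD complex, was lowest with 2.46 and 2.94, and MPHOSPH8, a subunit of the HUSH complex, had 12.4, the highest of the list in J76, and 10.9 in 293T. Of 14 zinc finger genes of chromosome 19 with other names (ZFP, ZSCAN and related), 3 were open in both lines (21.4%, against 60.7% of all genes), ZFP82 in J76 only (fold 8.86) and 10 in neither (71.4%, against 26.3%). The 3 were ZFP14 (12.4 and 14.0), ZFP30 (7.73 and 10.3) and ZSCAN22 (6.61 and 10.4). The 10 in neither line all lie at 52-59 Mb. There 53.7% of the 134 coding genes that are not members, these 10 included, were open in neither line and 38.1% in both. The list was chosen with earlier results known, was read at gene ends alone, and counts ZIM2 and PEG3, which share an end, separately. Of 10 chromosome 19 coding genes with longer ZNF symbols, such as ZNF585A, 6 had peaks in both lines (60%) and 1 had none (10%). Another 1 had a J76 peak alone and 2 a 293T peak alone. With no member's end within 2 kb, 5 remained: 3 with peaks in both lines, 1 with a 293T peak alone and 1 with none.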

How the data were processed

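ATAC-seq was run on 1 library each of J76 and 293T. The submitters' processing notes name Bowtie2 and MACS2; no version, setting, genome build or treatment of duplicate and multiply placed reads is given in the sources used here. Positions are printed as GRCh38, from the contig names of the lists, and counted from 1. The deposited peak lists, called per sample by the authors, give positions, an integer score, a fold ratio over background at the summit, and −log10 of both the p-value and the q-value (lowest −log10 q: 1.32 for J76, 1.37 for 293T).

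Gene ends came from the RefSeq table of GRCh38.p14, and promoter windows from the RefSeq promoter table, matched by gene ID (210 of 240 members). Scripts used python 3.11.15, pandas 2.3.3, numpy 2.4.6 and edlib 1.3.9 (identity as the share of the window not changed by the edit distance of a global alignment) and were tested on simulated data. Peaks were assigned to members by overlap of at least 1 bp with the 1 kb either side of an end. If a line had several such peaks, the highest fold was used. With 1 library per line there was no test.

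Named genes were all line-only members and, per position group, the 2 members open in both lines with the highest lower within-list fold percentile, the 1 with the largest difference of percentiles, and up to 3 of the longest genes open in neither; others named were chosen after their values were seen. The members, position groups, lists and motifs were chosen with earlier results of these data known. Alternatives were another peak threshold, list length, window, overlap rule, gene end, neighbour rule and gene position, leaving out shared ends, and promoter windows. Protein features were planned and not analysed here.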

Additional observations from a re-analysis of the deposited data

How the results depend on the processing

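The class and position counts were recomputed under 9 other ways of assigning peaks. The main counts that moved by more than 1.5 times did so under alternatives that test fewer members or redefine a neighbour. Reading the start site end alone, or promoter windows (chosen after seeing the data), leaves 210 members: 293T-only members at 42-52 Mb fell from 11 to 6 and 7, and those with a 293T-only neighbour from 11 to 2 and 4. Leaving out members with another protein-coding gene end within 2 kb (175 left) took J76-only members with a J76-only neighbour from 3 to 0. This is because ZNF69 and ZNF763 drop out. Counting any member within 100 kb as a neighbour gave 6. The other 77 recomputed main counts stayed within 1.5 times. Another 9 recomputed counts, all of position groups with at most 3 line-only members of that kind, moved by more, and 71 did not. The 14 J76-only members all remained at −log10 q of at least 5 or 10 and at equal list length, and ZNF114 left the class with 500 bp or 2.5 kb windows. Of the 23 293T-only members 21 remained at −log10 q of at least 10, without ZNF506 and ZNF536, and 21 with 2.5 kb windows, where ZNF536 and ZNF296 had a peak in both lines. Depth is unknown and there is 1 library per line, so neither list says how many sites were missed. No paired analysis was possible because each line has 1 library.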

Other observations

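Other transcripts of the chromosome 19 clusters were read in the same way. Of 20 ZNF pseudogenes, 13 had no peak at an end (65%, against 26.3% of all coding genes). Another 4 were open in both lines (20%, against 60.7%), 2 only in J76 and 1 only in 293T. With no member's end within 2 kb there were 17 pseudogenes: 12 in neither line, 2 in both, 2 only in J76 and 1 only in 293T. Of 34 long noncoding RNAs named after a ZNF gene, 25 have a member's end within 2 kb and may repeat that member's peak, as do all 4 that were open only in 293T. Of the other 9, 3 were open in both lines (33.3%, against 60.7% of all coding genes), 2 only in J76, 0 only in 293T and 4 in neither. In the stretch with the 6 J76-only members, the pseudogene ZNF788P (fold 8.79) and the antisense transcript ZNF433-AS1 (9.07) were also open in J76 only. ZNF702P, at 52-59 Mb, was open in J76 only (10.1). ZNF56P, at 15-25 Mb, was open in both lines with 11.7 in J76 and 14.9 in 293T. ZNF585A and ZNF585B, paralogs at 25-42 Mb, differed: the first had 11.4 and 13.6, and the second a 293T peak only (9.18).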
